A study of Homo sapiens with 4 samples.

Results

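The genes described here are 54 listed components and regulators of the mitotic spindle and kinetochore, from the cyclins and kinases that start mitosis to the proteins that divide the cell. Each was looked up by its gene name among the 42405 probes of the array that are not controls, and a gene with more than 1 probe was represented by its brightest. Of the 54, 53 were found, among 25148 genes measured in all, and they were read from 66 probes in 169 spots. CDK1, the kinase that drives entry into mitosis, was not found under that name and is given apart, under its older name CDC2. On every array all 53 passed as well above background, which the scanner software calls per spot, so no member was lost to the filter on dim probes.

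The arrays read out the RNA of Hep3B, a line from a human hepatocellular carcinoma, after knockdown of UNC50, which encodes a membrane protein of the secretory pathway. The cells carried 1 of 4 short hairpin RNA plasmids. shR-467, shR-554 and shR-749 are directed at bases 467, 554 and 749 of the UNC50 mRNA, shR-MOCK is the control, and all 4 populations were selected with puromycin at 1 ug/ml. There was 1 array per plasmid, so the 3 hairpins, which are different reagents against 1 gene, served as the replicates of knockdown, and the spread between control cultures is not known. Nothing in the labels says how many cultures stood behind an array, so p-values measure the spread between these arrays only. Relative to mock, UNC50 itself differed by -2.06, -2.87 and -2.42 on the log2 scale. Wherever 3 values follow for a gene, they stand in the order shR-467, shR-554, shR-749.

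A dividing cell builds the spindle from microtubules, attaches it to each chromosome through the kinetochore, and waits at the spindle checkpoint until every chromosome is attached. The anaphase-promoting complex, or APC/C, then marks securin and the cyclins for destruction, separase cuts the ring that holds sister chromatids together, and the daughter cells are split at the midzone. Most of the genes concerned are transcribed together late in the cell cycle. Their promoters often hold a CCAAT box, bound by NF-Y, and a cell cycle genes homology region, or CHR, through which the MuvB complexes repress them in resting cells and activate them, with B-MYB and FOXM1, in dividing cells. In RNA from a whole culture, fewer cells in mitosis and less RNA of these genes in each such cell cannot be told apart.

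These shared elements were looked for in the RefSeq promoter windows of assembly GRCh38.p14, which run from 250 bases before a gene's start to 50 bases after it. The letters searched were TTTGAA or TTCGAA for the CHR and CCAAT for the CCAAT box, on both strands, and matches were allowed to overlap. Windows were present for 46 of the 54 listed genes, 59 windows in all. The 8 not matched were BUB3, BIRC5, RACGAP1, UBE2C, AURKA, TPX2, FOXM1 and TTK. A CHR was found in 36 of the 46 genes (78.3%) and in 19.5% of the 27305 genes of the table. A CCAAT box was found in 35 (76.1%) against 39.7% of all, and both in 28 (60.9%) against 7.85%. Among the 10539 other genes that the arrays measured and the table holds, the shares were 15.9%, 42.6% and 6.60%. A match is a run of letters and not a shown binding site.

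The stretches below lie directly before the start of 6 of these genes and are shown because they carry both elements. HMMR and INCENP stood furthest below the mock array apart from NCAPH, whose signal was close to background, PLK1 and CDK1 are kinases that start mitosis, and CCNB2 and CDC20 encode the partner that activates CDK1 and the activator of the APC/C that ends its activity. Each is written 5′ to 3′ in the direction of the gene, ends at the last base before the start, and has the CHR and CCAAT letters (ATTGG where the CCAAT lies on the other strand) in capitals. They lie at chr5:163460478-163460631 (HMMR), chr11:62123894-62124010 (INCENP), chr16:23678806-23678888 (PLK1), chr10:60778390-60778477 (CDK1), chr15:59105016-59105145 (CCNB2) and chr1:43358871-43358980 (CDC20) of GRCh38.p14, all on the plus strand.
HMMR: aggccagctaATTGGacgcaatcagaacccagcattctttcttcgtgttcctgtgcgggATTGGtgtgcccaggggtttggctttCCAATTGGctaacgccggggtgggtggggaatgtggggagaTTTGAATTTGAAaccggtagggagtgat
INCENP: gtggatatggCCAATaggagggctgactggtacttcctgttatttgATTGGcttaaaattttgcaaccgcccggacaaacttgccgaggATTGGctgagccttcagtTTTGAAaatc
PLK1: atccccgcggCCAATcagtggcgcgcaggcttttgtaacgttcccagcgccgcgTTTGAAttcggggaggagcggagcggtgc
CDK1: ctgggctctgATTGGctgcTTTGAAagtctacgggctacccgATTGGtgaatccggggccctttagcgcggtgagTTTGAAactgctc
CCNB2: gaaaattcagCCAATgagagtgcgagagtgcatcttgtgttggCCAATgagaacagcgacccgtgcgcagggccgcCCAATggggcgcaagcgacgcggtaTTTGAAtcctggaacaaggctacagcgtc
CDC20: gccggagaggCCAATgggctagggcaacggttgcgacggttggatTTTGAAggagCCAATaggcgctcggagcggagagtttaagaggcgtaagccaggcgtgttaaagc

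HMMR held 2 CHR copies end to end, at bases -28 and -22 from the start, and its CCAAT letters at -69 and -66 overlap on opposite strands. In the stretch shown, CCNB2 had 3 CCAAT boxes on the same strand before its CHR at -29, and a further one lay at -244 of its window. The CDK1 stretch alternated the elements, with CCAAT letters at -78 and -46 and CHRs at -69 and -13. Matches were then counted over all the windows of the listed genes, so a site that lies in overlapping windows of a gene counts more than once. By this count the 52 CHR matches had their median at base -27 and 30 of them lay within 100 bases before the start. The 82 CCAAT matches lay further out, with their median at -76.5, and 54 of them fell in the same 100 bases. The condensin and topoisomerase genes held both elements in 1 of 5 cases, the spindle-associated genes in 5 of 6 and the genes for entry into mitosis in 6 of 8.

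**Figure D1:**
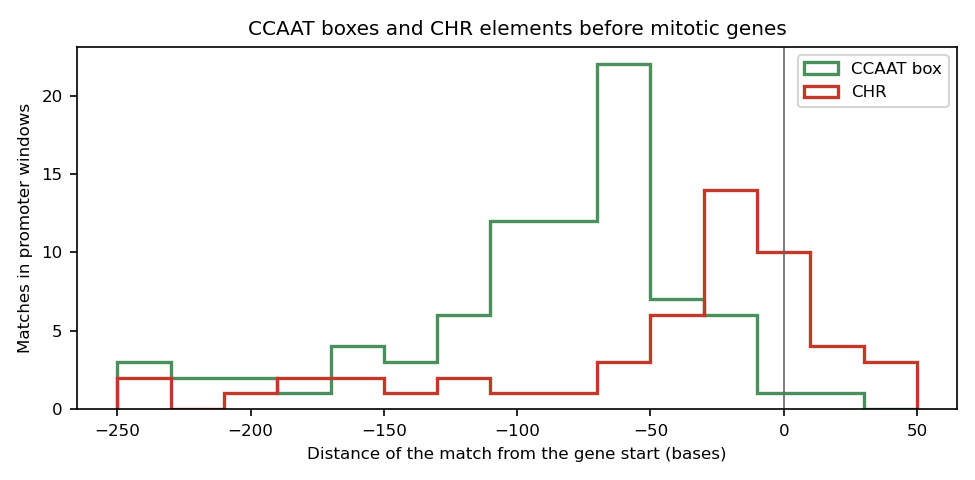
Positions of CCAAT and CHR letters in the RefSeq promoter windows of the listed mitotic genes, as the number of matches in steps of 20 bases against the distance of the first base of a match from the gene's start, where negative values lie before it. A site in overlapping windows of a gene is counted in each. The CHR matches gather around their median at -27 and the CCAAT matches around theirs at -76.5.

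The question put to the arrays was whether these genes stood at another level in cells with less UNC50. A level is the log2 processed signal of a gene after subtraction of its array's 75th percentile, and a difference is a hairpin's level minus the mock level on that log2 scale. No member reached 1.5-fold on average in either direction, while 7.69% of all genes stood lower by that much and 2.28% higher. Among genes that, like all members, passed the background mark on all 4 arrays, 2.93% stood lower by that much. With 1 hairpin left out, that much lower stood PLK1 (without shR-467, 11.6% of all genes), INCENP, SPC25 and NCAPH (without shR-554, 5.93%) and HMMR (without shR-749, 8.63%). No member passed limma, whose Benjamini-Hochberg adjusted p was 1.00 for every member, and 0 of the 25148 genes passed it, the smallest adjusted p being 0.612. At an unadjusted p under 0.05, limma picked 1 member, HMMR, against 381 of all genes (1.52%), and the methods' t-test picked 3 (HMMR, CCNB1 and BUB1B), against 2.57% of all genes. With 1 mock array against 3, the exact permutation test of a single gene cannot give a p below 0.25, so it was not used for calls. UNC50 itself, the targeted gene, had a mean difference of -2.45 and did not pass limma either. That no member passed therefore does not show that the members were unchanged. What follows describes these 4 arrays.

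Most members lay slightly below the mock level. Their mean difference had a median of -0.17, against -0.03 over all genes, and 47 of 53 had a mean below the mock level, as had 54.5% of all genes. With every hairpin, 30 of 53 stood lower, or 56.6%, where the share of all genes was 20.6%, and 3 stood higher, where it was 17.5%. None was lower by 1.5-fold with every hairpin, against 1.23% of all genes, and none higher, against 0.537%. The median was 0.00 over the 21487 genes that, like the members, passed the background mark on all 4 arrays. The same mock array enters all 3 differences, and it gave the highest level of the 4 arrays for 30 members and the lowest for 3.

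**Figure D2:**
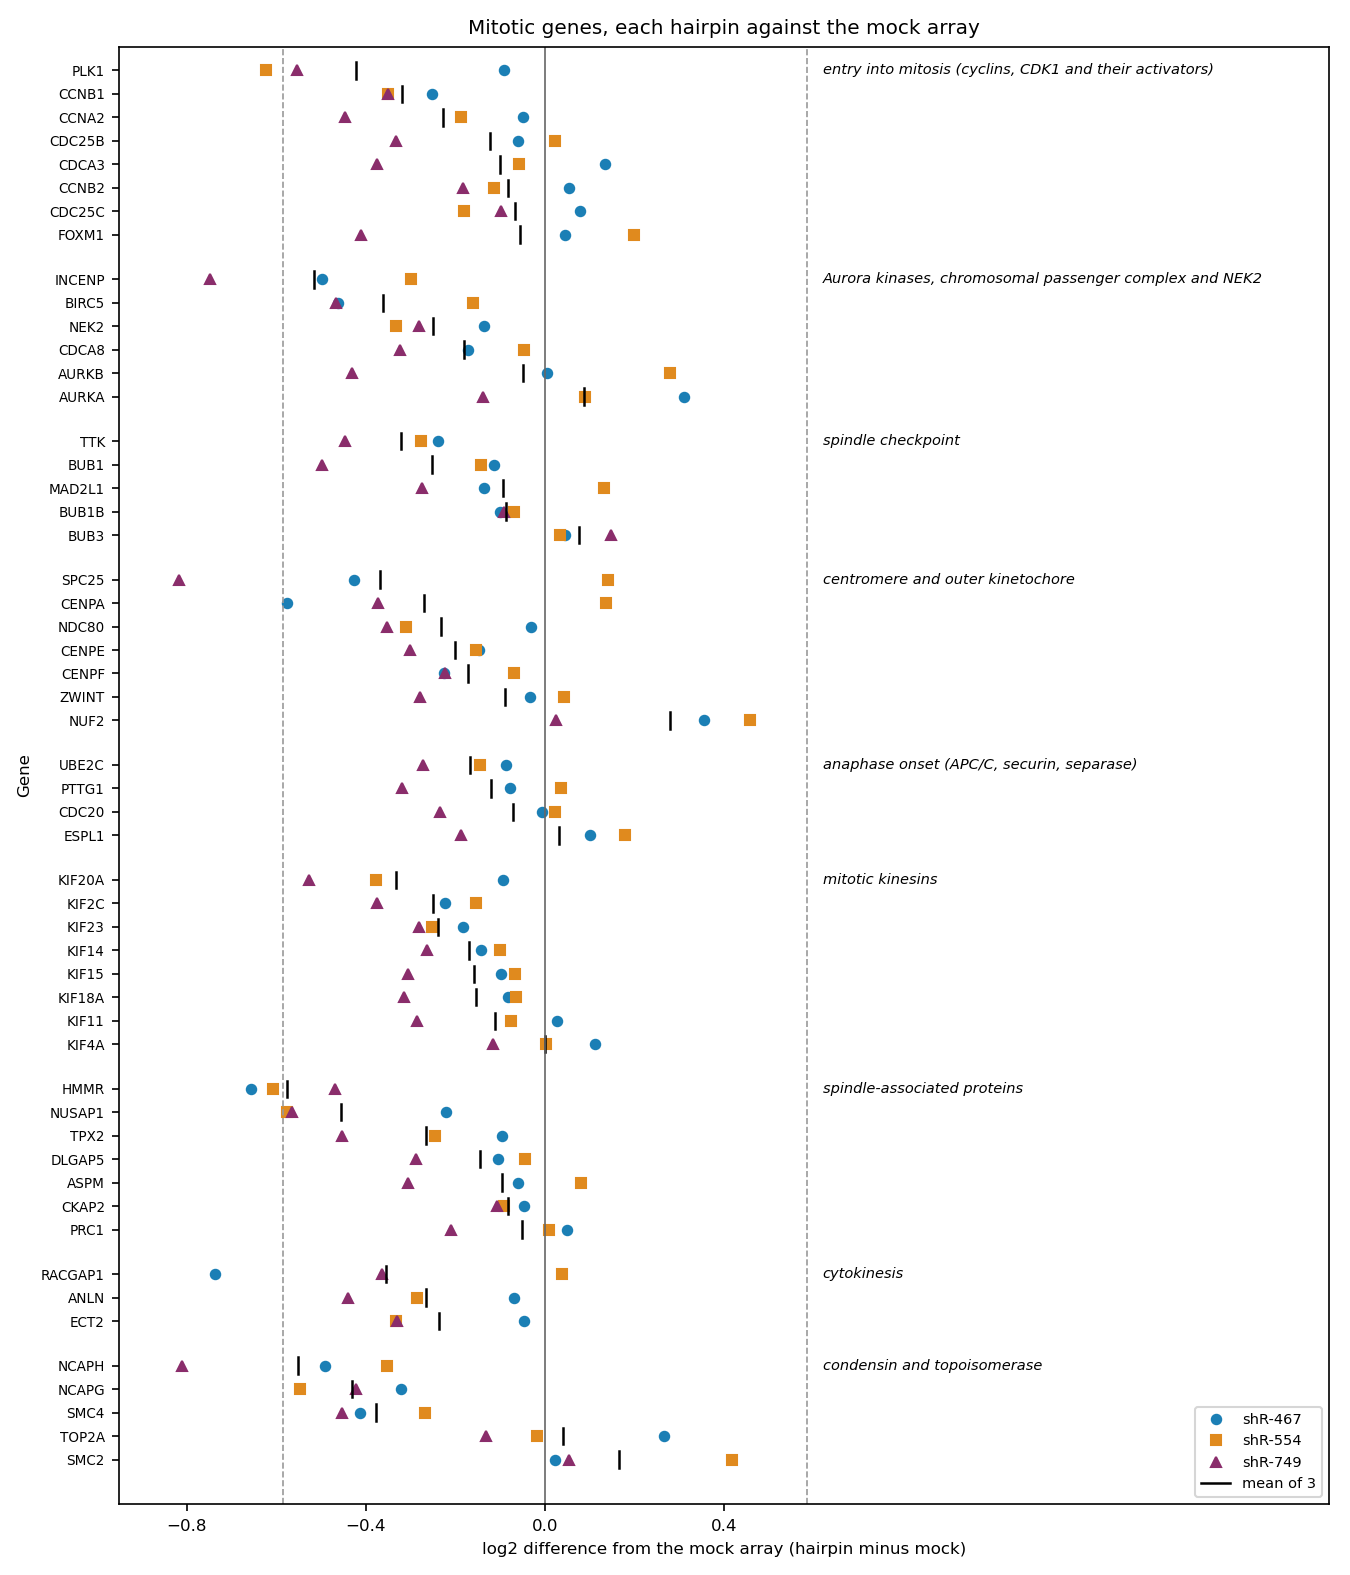
Log2 difference from the mock array for each of the 53 members, grouped by role and sorted by the mean within a role, with 1 symbol per hairpin and a bar at the mean of the 3. Dashed lines mark 1.5-fold in each direction, and 50 of the 53 symbols for shR-749 lie left of 0.

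The size of these differences varied between the hairpins. The shR-749 array stood below mock for 50 of 53 members (57.1% of all genes), the shR-467 array for 39 (45.7%) and the shR-554 array for 35 (54.9%). The median member difference was -0.32 with shR-749, where the median of all genes was -0.06. It was -0.09 with shR-467 and -0.08 with shR-554, against 0.03 and -0.04 over all genes. The shR-749 array gave the lowest level of the 4 for 38 members, while it was the lowest for 28.8% of all genes. Set against each other, without the mock array, shR-467 minus shR-749 had a median of 0.23 over the members (0.09 over all genes) and shR-554 minus shR-749 had 0.22 (0.00 over all genes), while shR-467 minus shR-554 had -0.02 (0.08). Beside this, UNC50 itself was at its lowest with shR-554 and not with shR-749.

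**Figure D3:**
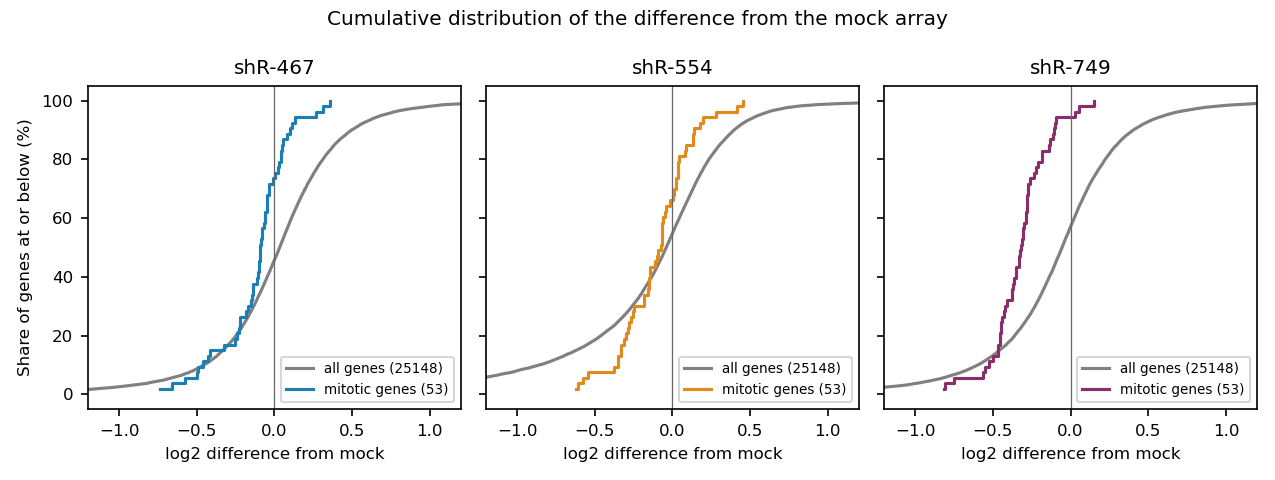
Cumulative share of genes, in percent, against the log2 difference from the mock array, in a panel for each hairpin, for the 53 members (coloured steps) and all 25148 genes (grey), with the axis cut at 1.2 either way. The step line of the members lies left of the grey line around 0 in each panel, with medians of -0.09, -0.08 and -0.32 from the left panel to the right.

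Past 1.5-fold with a single hairpin stood 2 members below mock with shR-467 (HMMR and RACGAP1), where 6.77% of all genes did, 2 with shR-554 (PLK1 and HMMR) against 16% and 3 with shR-749 (INCENP, SPC25 and NCAPH) against 10.4%. No member stood above mock by that much with any hairpin, against 7.29%, 4.41% and 5.4% of all genes. The quartiles of the members were -0.22 and 0.01 with shR-467 (-0.18 and 0.25 over all genes), -0.27 and 0.03 with shR-554 (-0.35 and 0.18), and -0.44 and -0.23 with shR-749 (-0.29 and 0.16). The signs of the 3 differences fell into 5 patterns. Beside the 30 lower with all, 9 were lower with shR-467 and shR-749 only, 5 with shR-554 and shR-749 only, 6 with shR-749 only, and 3 were higher with all.

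Entry into mitosis is set off by the cyclins, the CDC25 phosphatases that release CDK1 from inhibition, and PLK1, a kinase that amplifies the switch. Of these 8 members 3 stood lower with every hairpin (CCNA2, CCNB1 and PLK1), and the median mean difference was -0.11. PLK1 lay furthest down, with levels of 0.80 on mock and 0.71, 0.18 and 0.25 with the hairpins, and a mean difference of -0.42 ± 0.29 (SD, n = 3 hairpins). Its shR-467 array lay close to mock and the others well below. The array annotation places this probe on another chromosome than the PLK1 gene, and the second probe, on chromosome 16, had a mean of -0.19 and stood higher with shR-467 by 0.11, so that averaged over both probes PLK1 was not lower with every hairpin.

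CCNB1, cyclin B1, had levels of 3.71 on mock and 3.46, 3.36 and 3.36 with the hairpins, which gave -0.32 ± 0.06 (SD, n = 3). The hairpins lay close together and all below mock, but the second CCNB1 probe gave only -0.06. CCNA2, cyclin A2, had differences of -0.05, -0.19 and -0.45. FOXM1, the transcription factor that drives many of these genes, had the smallest mean of the group, -0.06 ± 0.32, from levels of 1.28 on mock and 1.32, 1.48 and 0.87 with the hairpins, so that only shR-749 was below mock. CCNB2, CDC25B, CDC25C and CDCA3, an adaptor that helps remove the mitosis inhibitor WEE1, had means between -0.12 and -0.07. CDC2, the array's entry for CDK1, was read from 10 spots and had differences of -0.05, -0.25 and -0.34, a mean of -0.22 ± 0.15 (SD, n = 3).

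The Aurora kinases correct faulty attachments and mature the spindle poles, and AURKB works in the chromosomal passenger complex with INCENP, its scaffold, BIRC5 (survivin) and CDCA8 (borealin). Of 6 genes in this group, which also takes in the centrosome kinase NEK2, 4 stood lower with every hairpin, with a median of -0.22. INCENP (probe on chr11:61919742-61919801, hg19) had levels of 1.72 on mock and 1.22, 1.42 and 0.97 with the hairpins, a mean difference of -0.51 ± 0.22 (SD, n = 3). No hairpin overlapped mock here, and the shR-749 array was the lowest. BIRC5 followed with differences of -0.46, -0.16 and -0.47. The kinases AURKB and AURKA were not below mock with every hairpin. AURKB had levels of 0.77 on mock and 0.77, 1.05 and 0.33 with the hairpins, a mean of -0.05 ± 0.36 with the mock level inside the range of the hairpins. AURKA had 0.31, 0.09 and -0.14. NEK2 stood at -0.25 ± 0.10 on average and CDCA8 at -0.18 ± 0.14, and with normexp CDCA8 was no longer lower with every hairpin.

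At the spindle checkpoint, TTK (MPS1) and BUB1 are the kinases that start the signal at unattached kinetochores, and MAD2L1, BUB1B and BUB3 form the inhibitor of the APC/C. The median over these 5 was -0.09, with 3 lower and 1 higher with every hairpin. TTK had levels of 0.91 on mock and 0.67, 0.63 and 0.46 with the hairpins, a mean of -0.32 ± 0.11 (SD, n = 3), with the hairpins all below mock. BUB1 had -0.11, -0.14 and -0.50. BUB1B lay near mock with little spread, -0.09 ± 0.02, and MAD2L1 was higher with shR-554 by 0.13 and lower with the other two. BUB3 was the exception, at 2.22 on mock and 2.26, 2.25 and 2.37 with the hairpins, a mean of 0.07 ± 0.06. Its second probe gave a mean of -0.09, and under median scaling, normexp or averaging of its probes BUB3 no longer stood above mock with every hairpin.

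The kinetochore is built on CENPA, the histone variant that marks the centromere, and binds microtubules through the NDC80 complex, of which NDC80, NUF2 and SPC25 are subunits. This group of 7 had a median of -0.20, with 3 lower with every hairpin, and it held SPC25, the member with the widest spread between hairpins. SPC25 stood at 2.14 on mock and 1.71, 2.28 and 1.32 with the hairpins, so that its mean of -0.37 ± 0.48 (SD, n = 3) was smaller than the spread. CENPA shared the pattern, with -0.58, 0.14 and -0.37. The NDC80 complex was split, since NDC80 stood lower with every hairpin (-0.03, -0.31 and -0.35) and NUF2 higher. NUF2 was the highest of all members, at 0.55 on mock and 0.90, 1.01 and 0.57 with the hairpins, a mean of 0.28 ± 0.23, although with shR-749 it lay only 0.03 above mock. CENPE, the kinesin that carries chromosomes to the spindle equator, averaged -0.20 ± 0.09 and CENPF -0.17 ± 0.09, and with normexp CENPF was no longer lower with every hairpin. ZWINT, an outer kinetochore protein, had the smallest mean, -0.09 ± 0.17, from levels of 2.86 on mock and 2.83, 2.90 and 2.58 with the hairpins.

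Anaphase is started by CDC20 and the ubiquitin-conjugating enzyme UBE2C on the APC/C, which free separase (ESPL1) from securin (PTTG1). The median over these 4 genes was -0.10. UBE2C, the only gene of the 4 below mock with every hairpin, had levels of 4.25 on mock and 4.17, 4.11 and 3.98 with the hairpins, a mean of -0.17 ± 0.09 (SD, n = 3). PTTG1 averaged -0.12 ± 0.18 and CDC20 -0.07 ± 0.14. ESPL1 had 2.11 on mock and 2.21, 2.29 and 1.92 with the hairpins, a mean of 0.03 ± 0.19. All 4 were below mock with shR-749, and 1 of the 4 with shR-554.

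The mitotic kinesins are motors that keep the poles apart (KIF11, KIF15), trim microtubule ends (KIF2C, KIF18A), organise the midzone (KIF4A, KIF20A, KIF23) and help complete division (KIF14). Of these, 6 of 8 stood lower with every hairpin, with a median of -0.16. KIF20A lay furthest down, at 0.68 on mock and 0.59, 0.31 and 0.16 with the hairpins, a mean of -0.33 ± 0.22 (SD, n = 3). KIF2C followed at -0.25 ± 0.11 and KIF23 at -0.24 ± 0.05, and the second KIF23 probe gave -0.45 ± 0.31. KIF14, KIF15 and KIF18A lay between -0.17 and -0.15, and KIF11 at -0.11 ± 0.16. KIF4A did not follow, at 1.15 on mock and 1.26, 1.15 and 1.04 with the hairpins, a mean of -0.00 with the mock level in the middle of the hairpins.

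Among the proteins that bind the spindle itself, HMMR (RHAMM, which anchors TPX2 at the poles) had the largest mean difference of all 53 members. Its level (probe on chr5:162918837-162918896, hg19) was 2.65 on mock and 1.995, 2.05 and 2.18 with the hairpins. The hairpins lay close together and all below mock, with a mean of -0.58 ± 0.10 (SD, n = 3), which is 67.0% of the mock level. HMMR was also the member whose limma p was under 0.05 before adjustment (0.0178, adjusted p = 1.00). NUSAP1, which bundles microtubules, had -0.22, -0.58 and -0.57, and TPX2, the activator of AURKA, -0.10, -0.25 and -0.45. DLGAP5 averaged -0.15 ± 0.13, ASPM, a spindle pole protein, -0.10 ± 0.20 and CKAP2 -0.08 ± 0.03. PRC1, which crosslinks the midzone, had levels of 3.35 on mock and 3.40, 3.36 and 3.14 with the hairpins, a mean of -0.05 ± 0.14. CKAP2, at 0.81 on mock and 0.77, 0.72 and 0.71 with the hairpins, had differences from -0.05 to -0.11, and averaged over its probes it was no longer lower with every hairpin. Of these 7 genes 5 were lower with every hairpin, and the median was -0.15.

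Cytokinesis depends on RACGAP1 and ECT2, which together switch on RhoA at the midzone, and on anillin (ANLN), which ties the contractile ring to the membrane. ANLN and ECT2 stood lower with every hairpin. RACGAP1 had the largest mean of the 3 but also the widest spread, at 0.55 on mock and -0.19, 0.59 and 0.19 with the hairpins, a mean of -0.35 ± 0.39 (SD, n = 3). Its shR-554 array was level with mock, and the array annotation places the probe on another chromosome than the RACGAP1 gene. ECT2 had 1.26 on mock and 1.21, 0.92 and 0.92 with the hairpins, a mean of -0.24 ± 0.16, and ANLN averaged -0.27 ± 0.19.

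Condensin compacts mitotic chromosomes and topoisomerase II (TOP2A) untangles them. The 3 genes lower with every hairpin, NCAPG, NCAPH and SMC4, all encode condensin subunits, and the median of the group was -0.38. NCAPG had differences of -0.32, -0.55 and -0.42 and SMC4 of -0.41, -0.27 and -0.45, and the second SMC4 probe gave -0.52 ± 0.15. NCAPH had levels of -4.50 on mock and -4.99, -4.86 and -5.31 with the hairpins, a mean of -0.55 ± 0.24 (SD, n = 3), but its lowest signal was only 1.14 times the lowest well above background on that array, and with normexp and quantile normalization the mean was -0.16. SMC2, the partner of SMC4 in the same ring, went the other way, at -0.55 on mock and -0.53, -0.13 and -0.49 with the hairpins, a mean of 0.16 ± 0.22. The second SMC2 probe gave -0.11, so the direction of SMC2 depended on the probe, and it was not above mock with every hairpin under median scaling or averaging of its probes. TOP2A had 2.29 on mock and 2.55, 2.27 and 2.16 with the hairpins, a mean of 0.04 ± 0.20 with the mock level among the hairpins.

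For 7 members the same probe was printed in 10 spots, which shows how finely 1 array measured them. The median SD between spots of an array was 0.048 and the highest 0.115. Outlier spots were dropped here too, which left 8 of 10 mock spots for CENPE. Every retained spot of every hairpin array lay below every retained mock spot for CCNB1, INCENP, BIRC5 and CENPE. For CENPE the highest shR-467 spot, at 1.399, lay just below the lowest mock spot, at 1.407. For KIF20A this held with shR-554 and shR-749, and for CCNA2 with shR-749 only. TOP2A had no such array, and its shR-467 spots all lay above the mock spots. This spread covers the surface and scanning of an array, not cultures, extraction or labelling.

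**Figure D4:**
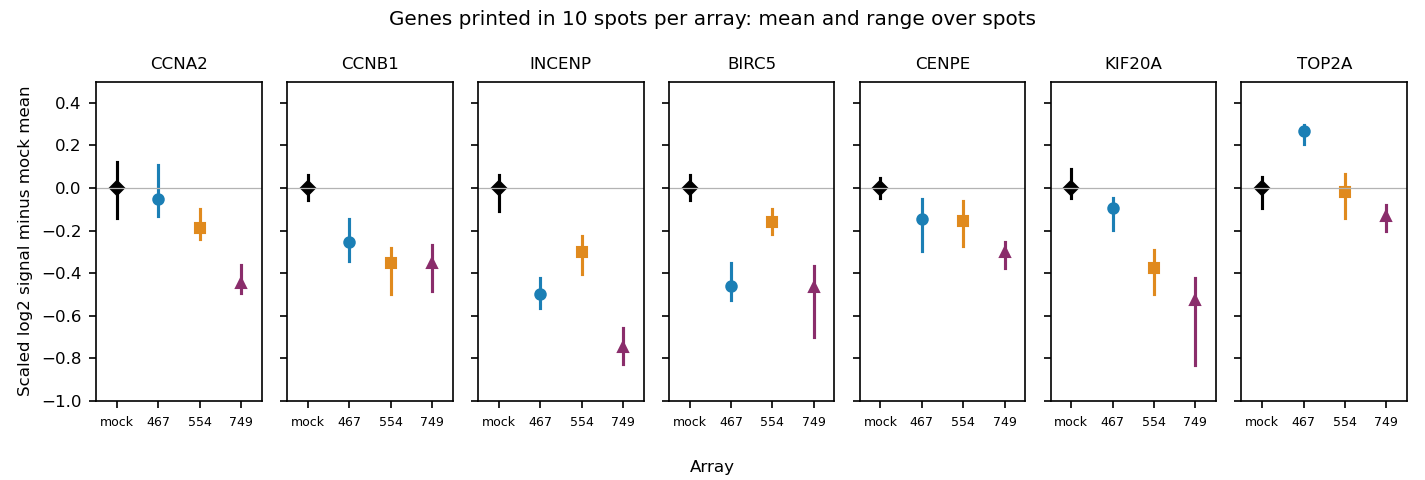
Level of the 7 members printed in 10 spots, as the scaled log2 signal minus the mock mean, on the mock array and the 3 hairpin arrays. Symbols are means over spots and lines run from the lowest to the highest spot, without outlier spots. For CCNB1, INCENP, BIRC5 and CENPE no hairpin line reaches the mock line.

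Another 13 probes measured 12 of the members a further time, 12 of them well above background on all 4 arrays. Their means stood below mock in 11 of 12 cases, with a median of -0.15, and all 12 were below mock with shR-749. The sign of the mean was that of the brightest probe for 9 of 12, and the means of both probes differed by at most 0.28. The signs differed for BUB3, SMC2 and KIF4A. The remaining probe, also for CKAP2, did not reach that mark anywhere.

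**Figure D5:**
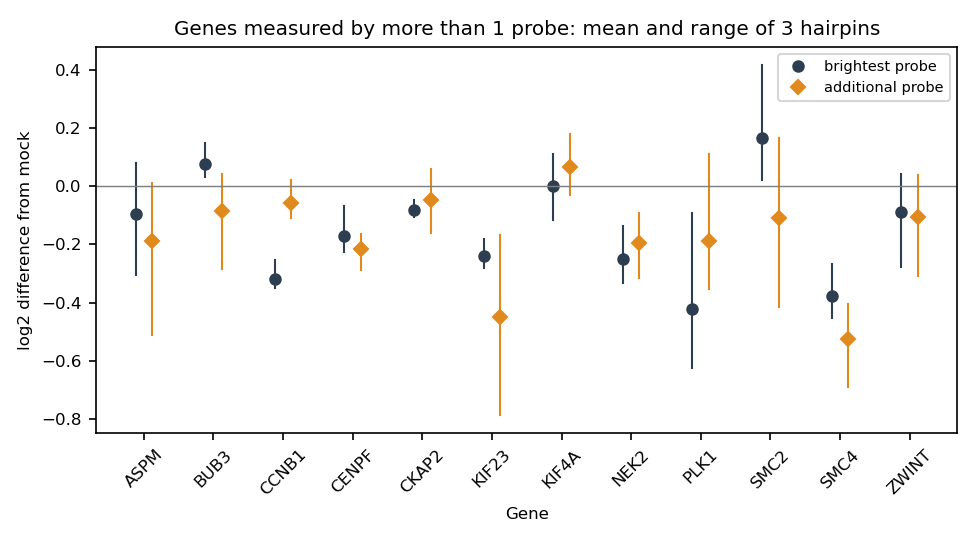
Log2 difference from the mock array for the 12 members with more than 1 probe well above background on all arrays, for the brightest and the additional probe. Symbols are means and lines the range over the 3 hairpins, and 11 of the 12 additional probes have their symbol below 0.

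The members with the promoter elements were set beside those without. The 27 measured members with both a CHR and a CCAAT box had a median difference of -0.15, with 12 lower with every hairpin and all 27 lower with shR-749. The 10 measured members whose window held neither TTTGAA nor TTCGAA had a median of -0.24. Of these, 8 were lower with every hairpin, among them CCNA2, CCNB1, KIF20A and NCAPH. Other spellings of the CHR were not searched, so a CHR in these 10 may have been missed. Outside the list, the 696 measured genes with both elements had a median of -0.06 and 26.4% were lower with every hairpin, beside -0.02 and 20.5% for the 5269 with neither. By these medians, members with both elements lay no lower than members without the CHR letters searched, and no test of the difference was made.

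Among 89 other genes of mitosis (further kinetochore, spindle, centriole, APC/C, condensin and cohesin genes), 44 stood lower with every hairpin and 8 higher. The shares of all genes were 20.6% and 17.5%. Their median was -0.15, and 3 reached 1.5-fold lower on average and 0 higher, against 7.69% and 2.28% of all genes. Among genes that passed the background mark on all 4 arrays, 2.93% stood lower by that much. The 2 furthest down were ARHGAP11A, a RhoA regulator, at -0.93 ± 0.34, and CCNF (cyclin F) at -0.68 ± 0.28 (SD, n = 3), and CKAP2L came next. ARHGAP11A and CCNF were dim and read from 1 spot each. Their lowest signals were 3.93 and 4.92 times the lowest well above background on that array. The 2 furthest up were MIS12, a kinetochore gene, at 0.41 ± 0.45 (0.00, 0.89 and 0.33, from 1 spot) and FZR1, the other activator of the APC/C, at 0.34 ± 0.10. The 20 genes for regulators of these promoters (MuvB, MYB, E2F and NF-Y factors) had a median of -0.04. With every hairpin, 6 of the 20 stood lower and 5 higher, against the same 20.6% and 17.5% of all genes. Among them E2F5 stood highest at 0.68 ± 0.05 and LIN54, the MuvB subunit that contacts the CHR, next at 0.16 ± 0.22, while E2F3 (-0.38 ± 0.08) and E2F8 (-0.37 ± 0.31) stood lowest. No gene of either list passed limma.

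Of the spots on an array other than controls, 67.6% to 73.6% were well above background and none was saturated, and all arrays shared 1 slide and 1 scan. All 8 hepatoma markers looked up were well above background on every array. Of them, 4 stood higher with every hairpin and none lower, where the shares of all genes were 17.5% and 20.6%. Their median was 0.31, and 3 were 1.5-fold higher on average, as were 2.28% of all genes. APOA1 (1.01 ± 0.38) and AFP (0.91 ± 0.67) stood furthest up, and SERPINA1 (0.16 ± 0.44) and HNF4A (0.20 ± 0.36) least (SD, n = 3). Of 8 mesenchymal and blood cell markers, COL1A1 and COL3A1 were well above background on no array and PDGFRB on 2, and the 5 that passed the filter had a median of -0.02, between CD3E at -0.32 ± 0.28 and CDH5 at 0.51 ± 0.61. Of the 5 only CD68 was bright. The lowest signals of CD3E, PTPRC, CDH5 and PECAM1 were 1.29, 2.22, 2.77 and 4.47 times the lowest well above background on that array. The part of a shift in hepatoma genes in the differences of the mitotic genes was not tested.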

How the data were processed

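Total RNA from 4 Hep3B populations was labelled with Cy3 and hybridised to 1-colour Agilent arrays. The authors deposited the Feature Extraction 10.7.1.1 output, in which the intensity of a spot is background-subtracted and detrended but not normalized between arrays, and a table of log2 values, whose normalization is not given in the sources used here. The main values are log2 of the processed signal minus the array's 75th percentile over 58717 spots other than controls. Outlier spots were dropped, and the mean was taken over the spots of each probe. A probe entered if its spots were well above background in the mock sample or in all 3 knockdown samples, and a gene was its brightest such probe. The signal over background limits the precision. Probe positions (hg19) come from the array annotation, which gives none for 5 of the members' chosen probes (CDCA3, AURKB, BUB1, ESPL1 and KIF20A).

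Groups follow the sample labels, which give 1 mock and 3 knockdown arrays. Differences were tested with limma 3.58.1 in R 4.3.3 (lmFit and eBayes with a trend, Benjamini-Hochberg adjustment over 25148 genes, 2 residual degrees of freedom), which assumes that the lone mock array varies like the hairpins. Python 3.11.15 was used for the promoter windows, and the steps were tested on simulated data. The 1.5-fold threshold on the mean is that of the study's methods. The members and the other lists were chosen with earlier results of these data known. Values in every array were to be given for members past 1.5-fold on average, for the largest and smallest mean difference of each role and for members whose second probe differed in sign or that were not well above background. From the other lists the 2 largest differences each way were named. Further members were named after their values were seen, to account for all 53.

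Alternatives tried were median scaling, quantile normalization with and without normexp (offset 50), the log2 table of the authors, a floor under low signals, no filter or a filter on all 4 arrays, outlier spots retained, gene values averaged over probes, a 2-fold threshold, each hairpin left out, the methods' t-test and limma without the trend.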

Additional observations from a re-analysis of the deposited data

How the results depend on the processing

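Between 28 and 32 members stood lower with every hairpin under the alternatives that kept all arrays, and 30 to 39 when a hairpin was left out. Of the 30, at least 28 were shared with each other normalization, the authors' values, outlier spots retained and averaging over probes. The floor, the filters, the threshold and the tests left the member levels unchanged, so they could not alter this count. A member lower with all 3 hairpins is lower with any pair of them, so leaving 1 out could lose none of the 30. The share of all genes lower with every hairpin was 18.4% to 21.4% where all arrays were kept and 27.7% to 38.3% with a hairpin left out. The median member difference was -0.17 to -0.18 with all arrays kept, -0.12 without shR-749 and -0.20 without shR-554. Lower by 1.5-fold on average were 0 members, 1 with the authors' log2 values (HMMR, which moved from -0.577 to -0.585 across the threshold of 0.585), and 1 to 3 when a hairpin was left out (PLK1 without shR-467, INCENP, SPC25 and NCAPH without shR-554, HMMR without shR-749). The share of all genes lower by 1.5-fold on average ranged from 1.13% with normexp and quantile normalization to 9.68% without a filter, and from 5.93% to 11.6% with a hairpin left out. Higher with every hairpin were 3 members, 1 under median scaling and 1 with the mean over probes (NUF2 in both), 2 with normexp and quantile normalization (NUF2 and SMC2), and 3 to 9 when a hairpin was left out, the 9 without shR-749, where 27.1% of all genes were higher with both remaining hairpins. Lower by 1.5-fold with every hairpin were 0 members, and 0 to 1 when a hairpin was left out (HMMR without shR-749, beside 2.72% of all genes). Leaving a hairpin out also leaves fewer arrays, and the cause of these shifts was not tested. limma called 0 members under each alternative, with 0 to 4 at an unadjusted p under 0.05, and the methods' t-test called 0 after adjustment and 3 before. Of 240 alternative values for 20 members named by the rule, 10 changed sign, in 8 members (AURKB, BUB3, ESPL1, FOXM1, KIF4A, PRC1, TOP2A and ZWINT), and NCAPH moved from -0.55 to -0.16 with normexp and quantile normalization. The 240 include values under the floor and the filters, which left member levels unchanged and so could not change a sign. No paired analysis was possible because there was 1 mock array and the labels pair no arrays. A block for slide or scan was not run, since all arrays shared 1 slide and 1 scan.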
